A study of Homo sapiens with 6 samples.

Results

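The genes described here encode the enzymes that write and remove acetyl and methyl groups on histones and methyl groups on DNA, with a few of their obligate partners. They were taken by name and not by any measured value, although the choice was made with earlier results of these data known. A pattern on gene symbols (HDAC, SIRT, KAT, KMT, KDM, SETD, DNMT, TET or NSD followed by a number) took 70 protein-coding genes outside chromosome Y, and EZH1, EZH2, EED, SUZ12, DOT1L, SUV39H1, SUV39H2, SETDB1, SETDB2 and UHRF1 were added, which gave 80 genes of the 25838 in the deposited table, 14706 of which are protein-coding. Of these 80, 78 had enough counts to be tested, among 14869 genes tested in all.

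RNA was sequenced from Sup-PR, a prednisolone-resistant sub-clone (3 libraries), and from Sup-B15, the parental line from which it was derived (3 libraries). Both are established lines of B-cell precursor acute lymphoblastic leukaemia, grown without drug at the time of collection in IMDM with fetal bovine serum and penicillin/streptomycin. The serum content is given as 15% in the sample labels and differently in the study's methods. Prednisolone is a synthetic glucocorticoid used in the first-line treatment of childhood leukaemia. The resistant state is represented by 1 sub-clone, so that any difference between this sub-clone and the parental culture enters the same comparison. The libraries of each line are labelled as replicates, but no source states that they came from separately grown cultures, and the p-values therefore speak only of variation among these libraries, possibly technical variation.

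The libraries held 20112543 to 23608056 counts in Sup-PR and 16966569 to 26603422 counts in Sup-B15. The chi-square per gene was taken before filtering, over the genes with enough summed counts in the pair of libraries compared. It was 2.92 to 9.67 within a line and 52.97 to 80.22 between the lines. No pair of libraries thus differed by as little as sampling noise. All 14 markers of precursor B cells were tested, with a summed level of 7217 to 7894 CPM (counts scaled to library size) in Sup-PR and 9839 to 10950 CPM in Sup-B15. Among these markers RAG1, CD22, CD24, MME and BLNK were called lower in Sup-PR. The 7 T cell markers summed to at most 0.2104 CPM in any library, with CD3D, CD3E, CD3G, CD2 and CD4 without counts, and the erythroid markers HBA1 and HBB had none. The 6 myeloid markers summed to 4.998 to 7.685 CPM in Sup-PR and 7.33 to 11.15 CPM in Sup-B15, with LYZ at 0, and the 4 stromal markers to 9.582 to 12.31 CPM in Sup-PR and 11.02 to 11.89 CPM in Sup-B15, with COL1A2 at 0. Whether the lower level of the precursor B cell markers has a part in the results below was not tested.

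Acetylation of histone tails by lysine acetyltransferases is generally associated with open, transcribed chromatin, and zinc-dependent deacetylases and NAD-dependent sirtuins remove the acetyl groups. Lysine methylation has a different meaning at each residue: at H3K4, H3K36 and H3K79 it accompanies promoters, enhancers and transcribed gene bodies, and at H3K9 and H3K27 it accompanies silent chromatin. DNA methyltransferases copy or newly place methyl groups on cytosine, and TET dioxygenases oxidise them. In lymphoid cells the ligand-bound glucocorticoid receptor works through acetyltransferases and deacetylases at its target genes, and genes such as NSD2, SETD2, CREBBP and KMT2A are recurrently altered in acute lymphoblastic leukaemia.

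The differences that carry the results below lay in a few genes, and the promoter sequences of 4 of them are shown: HDAC1 and HDAC2, the paralogous deacetylases that differed in opposite directions, and KDM1A and SETD7, the members that were higher in Sup-PR with the smallest p-values. Each sequence is the 250 bases before the start site in RefSeq (GRCh38.p14), read 5′ to 3′ on the strand of the gene, with GC boxes (GGGCGG on either strand, the element read by Sp1-type factors) in capitals. The HDAC1 segment is chr1:32291833-32292082 on the plus strand and lies just before the gene as listed in the table (chr1:32292086-32333635, GRCh38.p12). The HDAC2 segment, chr6:113971149-113971398 on the minus strand, and the SETD7 segment, chr4:139556220-139556469 on the minus strand, lie inside the listed gene spans (chr6:113933028-114011308 and chr4:139495941-139606699), which include longer transcripts. The KDM1A segment is chr1:23019218-23019467 on the plus strand and overlaps the 5′ end of the listed gene (chr1:23019443-23083689).
HDAC1: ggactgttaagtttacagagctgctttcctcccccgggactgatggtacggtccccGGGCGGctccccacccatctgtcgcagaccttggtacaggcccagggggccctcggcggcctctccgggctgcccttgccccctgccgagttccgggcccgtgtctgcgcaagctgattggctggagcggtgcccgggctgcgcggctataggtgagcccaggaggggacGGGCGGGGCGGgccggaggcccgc
HDAC2: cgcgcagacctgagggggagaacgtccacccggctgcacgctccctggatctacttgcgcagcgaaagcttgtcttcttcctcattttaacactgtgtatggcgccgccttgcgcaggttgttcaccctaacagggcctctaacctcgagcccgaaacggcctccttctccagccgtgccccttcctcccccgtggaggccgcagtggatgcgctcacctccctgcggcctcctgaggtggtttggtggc
KDM1A: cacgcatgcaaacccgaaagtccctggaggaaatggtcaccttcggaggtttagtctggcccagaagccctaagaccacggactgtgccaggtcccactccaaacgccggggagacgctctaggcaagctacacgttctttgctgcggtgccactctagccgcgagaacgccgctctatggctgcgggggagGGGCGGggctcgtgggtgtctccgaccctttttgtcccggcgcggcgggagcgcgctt
SETD7: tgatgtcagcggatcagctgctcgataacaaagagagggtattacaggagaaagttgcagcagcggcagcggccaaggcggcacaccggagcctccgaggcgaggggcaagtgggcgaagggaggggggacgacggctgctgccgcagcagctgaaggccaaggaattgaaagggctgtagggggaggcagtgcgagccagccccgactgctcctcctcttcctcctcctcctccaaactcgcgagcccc
HDAC1 carried 3 GC boxes, the last pair of them sharing a base, KDM1A carried 1, and the HDAC2 and SETD7 windows carried 0. Promoters of 72 of the 80 genes were found in the RefSeq table, and DNMT3L, DOT1L, HDAC5, KAT6A, KAT8, NSD3, SETD1B and SIRT7 had no entry. A GC box was found in 43 of these 72 promoters (59.7%), against 42.6% of all 35116 promoters of the same length. The letters CACGTG, the E-box read by MYC, were found in 11 (15.3%) against 6.34%, and CCAAT in 36.1% against 32.0%, both strands being searched. A full glucocorticoid response element (AGAACA, any 3 bases, TGTTCT) matched 0 of the 72 promoters, against 0.00285% of all promoters. The median number of CpG dinucleotides in the 250 bases was 23 for the chromatin enzymes and 11 for all promoters. These matches describe letters in a window and were not compared with the expression values.

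Most genes of this class differed little between the lines. A gene is called here when its adjusted p lies under 0.05 and its change exceeds 1.5-fold. By that rule 0 of the 78 genes tested were called higher in Sup-PR with edgeR, DESeq2 or limma-voom (13 had an unadjusted p under 0.05 and a positive estimate), and 1, HDAC5, was called lower (1.28%). Over all genes tested, 7.53% were called higher and 15.4% lower, or 23.0% in either direction. Because the chromatin enzymes are well expressed (median 75.28 CPM against 21.28 CPM for all genes tested), they were also set beside the 8803 protein-coding genes with a mean of at least 10 CPM, a background chosen after the data were seen. In that background 6.45% were called higher and 7.50% lower (13.9% either way), against 1 of the 72 chromatin enzymes at that level (1.39%).

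By the adjusted p alone, 12 chromatin enzymes were higher and 25 lower in Sup-PR (37 of 78, 47.4%), against 28.0% higher and 27.4% lower (55.4% either way) over all genes tested. Among protein-coding genes with at least 10 CPM the shares were 38.6% higher and 24.9% lower (63.6% either way), against 16.7% and 33.3% of the 72 chromatin enzymes at that level. The counts of each role below stand beside these shares, and no role was tested as a set. The split between higher and lower members moved with the method and the scaling. With DESeq2 it was 12 higher and 19 lower. There KAT5, KDM4C, KDM8, KMT5B, SETD4 and SIRT3 no longer passed as lower (adjusted p 0.0552 to 0.102). The split was 6 higher and 30 lower when counts were divided by library totals only, and 8 higher and 30 lower with upper-quartile scaling. With library totals only, 6 of the higher members no longer passed (DOT1L, EED, KAT2A, KMT5C, SETD1A and TET2, adjusted p 0.0506 to 0.129), and with upper-quartile scaling 4 did not (EED, KAT2A, KMT5C and SETD1A, adjusted p 0.0602 to 0.0832). The Sup-PR and Sup-B15 libraries did not overlap for 38 chromatin enzymes (15 higher and 23 lower, 48.7%). The same held for 61.1% of all genes tested (30.8% higher, 30.3% lower) and for 68.0% of the protein-coding genes with at least 10 CPM (41.1% higher, 26.9% lower).

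The sizes of the differences were small. The log2 fold changes of the 78 genes ran from -0.65 to 0.57 with a median of -0.01, and the median of all genes tested was also -0.01. Among protein-coding genes with at least 10 CPM the median was 0.07, against -0.02 for the 72 chromatin enzymes at that level. The median size of the log2 fold change, regardless of direction, was 0.17 for the chromatin enzymes, 0.33 for all genes tested and 0.25 for protein-coding genes with at least 10 CPM. An estimate over 1.25-fold was obtained for 14 chromatin enzymes (17.9%), against 50.4% of all genes tested and 39.3% of the protein-coding genes with at least 10 CPM. For 67 of the 78 (85.9%) the whole 95% interval of the difference lay within 1.5-fold in both directions, against 49.1% and 73.1% of these backgrounds. For the 72 at that level the share was 90.3%. The 11 genes for which the interval reached beyond 1.5-fold were HDAC5, HDAC6, HDAC11, SIRT2, SIRT4, SIRT5, SIRT7, KDM4D, KDM6B, KDM8 and SETD7, so that 7 of them were deacetylases of either class.

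**Figure D1:**
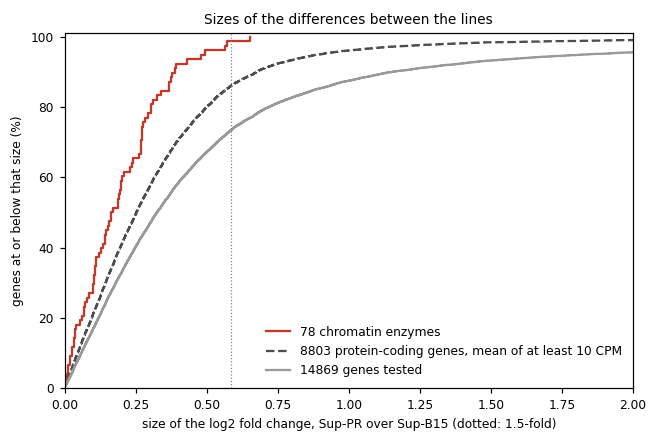
Cumulative share of genes (%, vertical axis) with a log2 fold change up to the size on the horizontal axis, for the 78 chromatin enzymes, the 8803 protein-coding genes with a mean of at least 10 CPM and all 14869 genes tested. The line of the chromatin enzymes lies left of the others, with 1 gene (HDAC5) beyond the dotted 1.5-fold mark.

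The zinc-dependent deacetylases (HDAC1 to HDAC11) contained the only called member and differences in both directions. Of 11, 3 were higher and 4 lower by the adjusted p, and 4 did not pass, beside 28.0% higher and 27.4% lower over all genes tested. HDAC5 (ENSG00000108840, chr17:44076746-44123702, minus strand) encodes a class IIa deacetylase that shuttles between nucleus and cytoplasm and represses MEF2 targets. It stood at 99.71, 102.4 and 94.84 CPM in the Sup-PR libraries and at 153.1, 151.3 and 162.9 CPM in the Sup-B15 libraries. Every Sup-PR library was below every Sup-B15 library, and the spread within a line was small beside the gap. Its level in Sup-PR was 63.5% of that in Sup-B15 (log2 fold change -0.65, SE 0.05, 95% interval -0.77 to -0.54, adjusted p = 2.94e-07). This was past both thresholds in 19 of 20 alternative settings. These count the adjusted p alone, which reuses the reported fit without the fold threshold and could not differ. The exception was a test of whether the change exceeds 1.5-fold (adjusted p = 0.214), since the interval includes 1.5-fold. Only 1 other gene of the table overlaps HDAC5, AC023855.1, with 0.0366% of its counts, and the 20 nearest tested genes had a median log2 fold change of -0.01, with 1 called higher and 6 called lower.

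HDAC1 and HDAC2 encode the interchangeable class I catalytic subunits of the Sin3, NuRD and CoREST complexes. HDAC1 was lower in Sup-PR, at 204.0, 210.0 and 213.9 CPM, against 260.0, 261.2 and 288.6 CPM in Sup-B15. HDAC2 was higher, at 252.4, 269.8 and 283.4 CPM in Sup-PR, against 200.1, 200.6 and 219.8 CPM in Sup-B15. Neither gene showed an overlap between the lines. The log2 fold change of HDAC1 was -0.37 (SE 0.05, adjusted p = 5.99e-05) and that of HDAC2 was 0.38 (SE 0.06, adjusted p = 8.84e-05), and neither reached 1.5-fold. HDAC3, the catalytic subunit of the NCoR and SMRT co-repressor complexes, was at 75.85, 75.01 and 79.66 CPM in Sup-PR and at 64.19, 59.75 and 65.76 CPM in Sup-B15 (log2 fold change 0.28, adjusted p = 0.00101).

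Among the other class IIa genes, HDAC7 was lower and HDAC9 higher. HDAC7, which takes part in repression during lymphocyte development, averaged 120.6 ± 2.97 CPM in Sup-PR and 148.9 ± 3.34 CPM in Sup-B15 (SD over 3 libraries of each line; log2 fold change -0.30, adjusted p = 0.000142). HDAC9 averaged 56.04 ± 2.23 CPM in Sup-PR and 45.75 ± 1.70 CPM in Sup-B15 (SD over 3 libraries of each line; log2 fold change 0.29, adjusted p = 0.00103). HDAC4, the remaining member of this class, overlapped between the lines (log2 fold change 0.10, interval -0.06 to 0.27). HDAC6, a mainly cytoplasmic tubulin deacetylase, was lower at 59.82, 52.41 and 48.99 CPM in Sup-PR, against 77.31, 75.34 and 64.45 CPM in Sup-B15 (log2 fold change -0.43, adjusted p = 0.000591). HDAC10 and HDAC11 were scarce, and the interval of HDAC11 ran from -0.80 to 1.08, so that a change of 1.5-fold was not detectable at this depth. HDAC8 stood at 10.3 to 11.8 CPM in Sup-PR and 10.59 to 11.36 CPM in Sup-B15, and its interval of -0.23 to 0.21 lay within 1.5-fold.

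**Figure D2:**
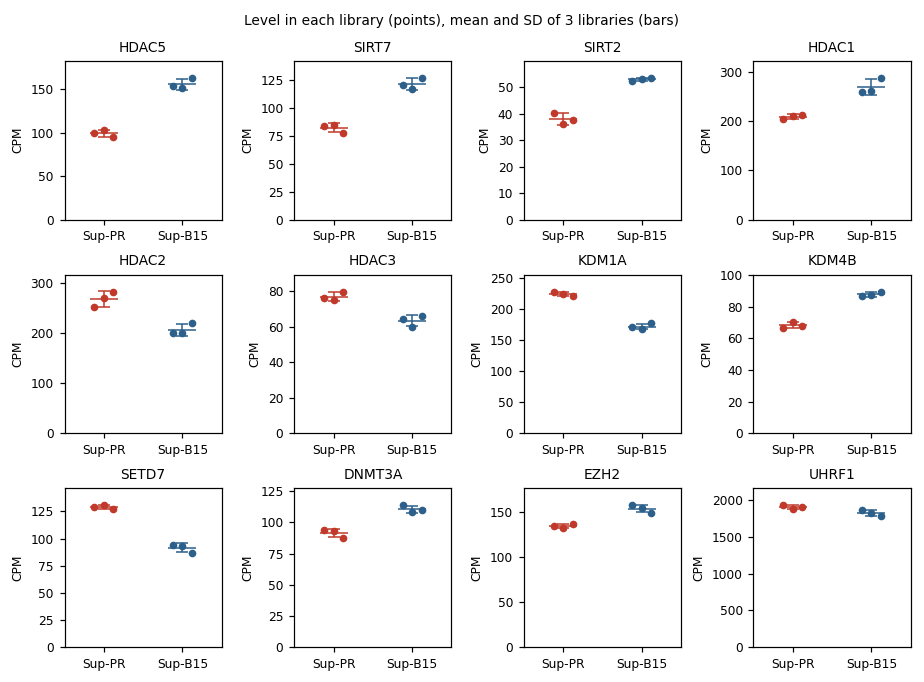
Level of 12 chromatin enzyme genes in each library (CPM, vertical axis from 0) in Sup-PR and Sup-B15, with bars for the mean and SD of 3 libraries. HDAC5 shows the widest relative gap (94.84 to 102.4 CPM in Sup-PR, 151.3 to 162.9 CPM in Sup-B15), HDAC1 and HDAC2 differ in opposite directions, and UHRF1 is nearly level.

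Sirtuins remove acyl groups with NAD as co-substrate and divide into nuclear (SIRT1, SIRT6, SIRT7), mainly cytoplasmic (SIRT2) and mitochondrial members (SIRT3, SIRT4, SIRT5). Of the 7, 4 were lower in Sup-PR by the adjusted p and 0 were higher, with a median log2 fold change of -0.31. Over all genes tested, 27.4% were lower and 28.0% higher by the adjusted p. SIRT7, a nucleolar deacetylase with activity on H3K18, stood at 83.73, 84.88 and 77.51 CPM in Sup-PR and at 120.0, 116.8 and 126.8 CPM in Sup-B15. The lines did not overlap, and the level in Sup-PR was 67.7% of that in Sup-B15 (log2 fold change -0.56, SE 0.06, interval -0.69 to -0.44, adjusted p = 2.1e-06). The estimate fell just short of 1.5-fold (0.585 on the log2 scale). It passed that mark when Sup-PR replicate 2 was left out (-0.60) or Sup-B15 replicate 2 was left out (-0.59), and under 4 other settings. SIRT7 shares 3054 bases with MAFG on the same strand, a gene with 218.6% of the counts of SIRT7 and a log2 fold change of 0.04, and how shared reads were assigned is not stated.

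SIRT2 stood at 40.28, 36.07 and 37.7 CPM in Sup-PR and at 52.28, 53.23 and 53.56 CPM in Sup-B15. All Sup-PR libraries were below all Sup-B15 libraries (log2 fold change -0.48, SE 0.06, adjusted p = 2.26e-05). The opposite-strand gene NFKBIB overlaps SIRT2 over 163 bases with 87.57% of its counts and a log2 fold change of 0.43, the other direction. SIRT5, a mitochondrial desuccinylase, averaged 12.82 ± 1.14 CPM in Sup-PR and 16.86 ± 0.858 CPM in Sup-B15 (SD over 3 libraries of each line; log2 fold change -0.39, adjusted p = 0.00338). The mitochondrial deacetylase SIRT3 was also lower (log2 fold change -0.31, adjusted p = 0.0114, and 0.0552 with DESeq2). It shares 386 bases with PSMD13, which has 900.5% of its counts. SIRT1, the best-known nuclear deacetylase of this family, did not pass (log2 fold change 0.12, interval -0.04 to 0.28, adjusted p = 0.174). Its log2 fold change was 0.19 without Sup-PR replicate 1 (adjusted p = 0.0264) and 0.03 without Sup-PR replicate 3 (adjusted p = 0.716). SIRT4, at 1.65 to 2.36 CPM in Sup-PR and 1.2 to 1.42 CPM in Sup-B15, had the highest estimate of all 78 genes (0.57) but a wide interval (0.04 to 1.10, adjusted p = 0.0634). Its libraries did not overlap.

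In summed FPKM (fragments scaled to gene length and library size, the unit in which genes of different length can be compared), the sirtuins were at 43.04 to 45.17 in Sup-PR and at 50.74 to 52.9 in Sup-B15. The zinc-dependent deacetylases summed to 122.7 to 127.9 FPKM in Sup-PR and 140.2 to 149.8 FPKM in Sup-B15. Neither sum overlapped between the lines. The lysine acetyltransferases, the opposing enzymes, summed to 70.7 to 72.97 FPKM in Sup-PR and 68.77 to 70.46 FPKM in Sup-B15. These ranges did not overlap either, with Sup-PR higher by a narrow margin. The acetyltransferases CREBBP, EP300 and HAT1 are not members and are not in this sum. These sums weigh the most abundant genes most: HDAC1 alone averaged 52.6 FPKM in Sup-PR and 67.4 FPKM in Sup-B15.

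The lysine acetyltransferases were nearly level. Of 8, KAT2A was higher and KAT5 lower by the adjusted p, and 6 did not pass. KAT2A (GCN5), the catalytic subunit of the SAGA and ATAC complexes, stood at 112.6, 103.0 and 95.15 CPM in Sup-PR and at 92.77, 90.57 and 87.17 CPM in Sup-B15. The lines were separate by a narrow margin (log2 fold change 0.20, adjusted p = 0.0167), and the adjusted p was 0.0526 to 0.07 when Sup-PR replicate 1, Sup-PR replicate 2 or Sup-B15 replicate 2 was left out. Its paralogue KAT2B (PCAF) overlapped between the lines (log2 fold change -0.07, interval -0.27 to 0.12). KAT5 (TIP60), the catalytic subunit of NuA4, was lower by a log2 fold change of -0.27 (adjusted p = 0.0275, and 0.0862 or 0.119 without Sup-PR replicate 1 or Sup-B15 replicate 1). The opposite-strand gene RNASEH2C covers 5600 of its bases with 383.8% of its counts and a log2 fold change of -0.35, so this value is uncertain where strand was not used in counting. For KAT6A, KAT6B and KAT8, of the MYST family, the estimates were 0.03, 0.01 and 0.01, and all their intervals lay between -0.15 and 0.17.

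Methyltransferases of H3K4 differed little. Of the 6 catalytic subunits of COMPASS-type complexes, SETD1A was higher, KMT2D lower and 4 did not pass. SETD1A, which methylates promoters, averaged 114.8 ± 8.81 CPM in Sup-PR and 99.11 ± 4.44 CPM in Sup-B15 (SD over 3 libraries of each line; log2 fold change 0.21, adjusted p = 0.0119). Without Sup-PR replicate 2 its adjusted p was 0.0628. KMT2D, an enhancer H3K4 monomethyltransferase, was at 219.3, 216.6 and 198.0 CPM in Sup-PR and at 256.7, 253.6 and 216.5 CPM in Sup-B15, where the lowest Sup-B15 library lay within the Sup-PR range (log2 fold change -0.20, adjusted p = 0.0227). Without Sup-PR replicate 3 or without Sup-B15 replicate 1 or 2 its adjusted p was 0.0843 to 0.107. KMT2A, KMT2B, KMT2C and SETD1B had estimates of 0.02, -0.07, 0.07 and -0.10.

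Among the H3K36 methyltransferases, NSD1 was higher, NSD3 lower and NSD2 and SETD2 did not pass. NSD1, a dimethyltransferase, stood at 217.9, 235.0 and 229.5 CPM in Sup-PR and at 195.0, 194.5 and 180.0 CPM in Sup-B15, with no overlap (log2 fold change 0.26, SE 0.05, adjusted p = 0.000855). NSD2, the dimethyltransferase with most transcript per gene length among these 4, had an estimate of 0.09 (interval -0.03 to 0.21, adjusted p = 0.197). SETD2, the enzyme that trimethylates H3K36, had an estimate of -0.11 (interval -0.24 to 0.03, adjusted p = 0.162), and without Sup-B15 replicate 3 its adjusted p was 0.0143. NSD3 (log2 fold change -0.20, adjusted p = 0.0228, and 0.0788 to 0.0987 without Sup-PR replicate 2 or 3 or Sup-B15 replicate 1) overlaps the opposite-strand gene DDHD2 over 5862 bases. DDHD2 holds 50.4% of the counts of NSD3 and had a log2 fold change of 0.43.

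H3K9 methyltransferases place the mark of constitutive heterochromatin. SETDB2 was lower in Sup-PR at 132.0, 111.7 and 122.1 CPM, against 141.3, 137.3 and 139.8 CPM in Sup-B15. The lines did not overlap (log2 fold change -0.19, adjusted p = 0.0148), but without Sup-PR replicate 2, the lowest library, the adjusted p was 0.0876. SETDB1, SUV39H1 and SUV39H2 did not pass, with estimates of -0.16, 0.11 and 0.11. For SETDB1 the adjusted p was 0.085 with all libraries, 0.0273 without Sup-PR replicate 1 and 0.00929 without Sup-B15 replicate 3.

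Polycomb repressive complex 2 methylates H3K27 through EZH2 or EZH1, with EED and SUZ12 as non-catalytic core subunits. EZH2 stood at 134.9, 132.2 and 136.9 CPM in Sup-PR and at 157.4, 154.8 and 149.3 CPM in Sup-B15. Its libraries did not overlap, and the difference was a log2 fold change of -0.19 (SE 0.05, adjusted p = 0.00422). EED was higher, at 55.25, 60.59 and 64.66 CPM in Sup-PR and 49.25, 47.82 and 56.98 CPM in Sup-B15, with overlap (log2 fold change 0.23, adjusted p = 0.0219). It did not pass without Sup-PR replicate 2 or 3 or without Sup-B15 replicate 1 or 2 (adjusted p 0.0738 to 0.123). SUZ12 was level (log2 fold change 0.03, interval -0.07 to 0.14). EZH1 was lower with a log2 fold change of -0.30 (adjusted p = 0.0253), a value that did not pass without Sup-PR replicate 2 or 3 or without Sup-B15 replicate 1 or 2 (adjusted p 0.0539 to 0.163). The core subunits thus did not share a direction.

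Of the H3K79 and H4K20 methyltransferases, DOT1L and KMT5C were higher, KMT5B lower, and KMT5A did not pass. DOT1L, the H3K79 methyltransferase, stood at 200.5, 189.5 and 172.3 CPM in Sup-PR and at 161.0, 164.1 and 141.4 CPM in Sup-B15. The libraries did not overlap (log2 fold change 0.27, adjusted p = 0.0043). It shares bases with the opposite-strand genes AP3D1 (320 bases, 112.6% of its counts, log2 fold change 0.14) and PLEKHJ1 (2495 bases, 33.57% of its counts, log2 fold change 0.51). KMT5A, the H4K20 monomethyltransferase, had an estimate of 0.11 (interval 0.00 to 0.22, adjusted p = 0.0878). The enzymes for di- and trimethylation of H4K20 differed in opposite directions, KMT5C by 0.27 (adjusted p = 0.018) and KMT5B by -0.16 (adjusted p = 0.0358) on the log2 scale. KMT5C did not pass without Sup-PR replicate 1 (log2 fold change 0.17) or Sup-B15 replicate 3 (adjusted p 0.0549 to 0.0812), nor KMT5B without Sup-PR replicate 1 or 3 or Sup-B15 replicate 2 or 3 (adjusted p 0.0654 to 0.0902).

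SETD7 had the largest log2 fold change among the 12 members higher in Sup-PR by the adjusted p. It monomethylates H3K4 in vitro and many non-histone proteins. It stood at 128.9, 130.6 and 127.0 CPM in Sup-PR and at 94.32, 93.33 and 86.86 CPM in Sup-B15. The libraries of a line lay close together and the lines were far apart (log2 fold change 0.49, SE 0.05, interval 0.38 to 0.61, adjusted p = 3.37e-06). The 20 nearest tested genes on chromosome 4 had a median log2 fold change of 0.21, with 4 called higher and 2 lower. The other genes in this group are less well placed in histone methylation: SETD3 is an actin histidine methyltransferase, and KMT2E and SETD5 are often described as lacking activity of their own. Of the 7, SETD4 was lower (log2 fold change -0.24, adjusted p = 0.0341, and 0.0619 to 0.126 without Sup-PR replicate 2 or 3 or Sup-B15 replicate 1 or 2) and 5 did not pass, among them SETD3 (0.04) and KMT2E (0.04). SETD6 and SETD9 lie across much more abundant opposite-strand genes (CNOT1, with 3142% of the counts of SETD6, and MIER3, with 1172% of those of SETD9) and are uncertain.

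**Figure D3:**
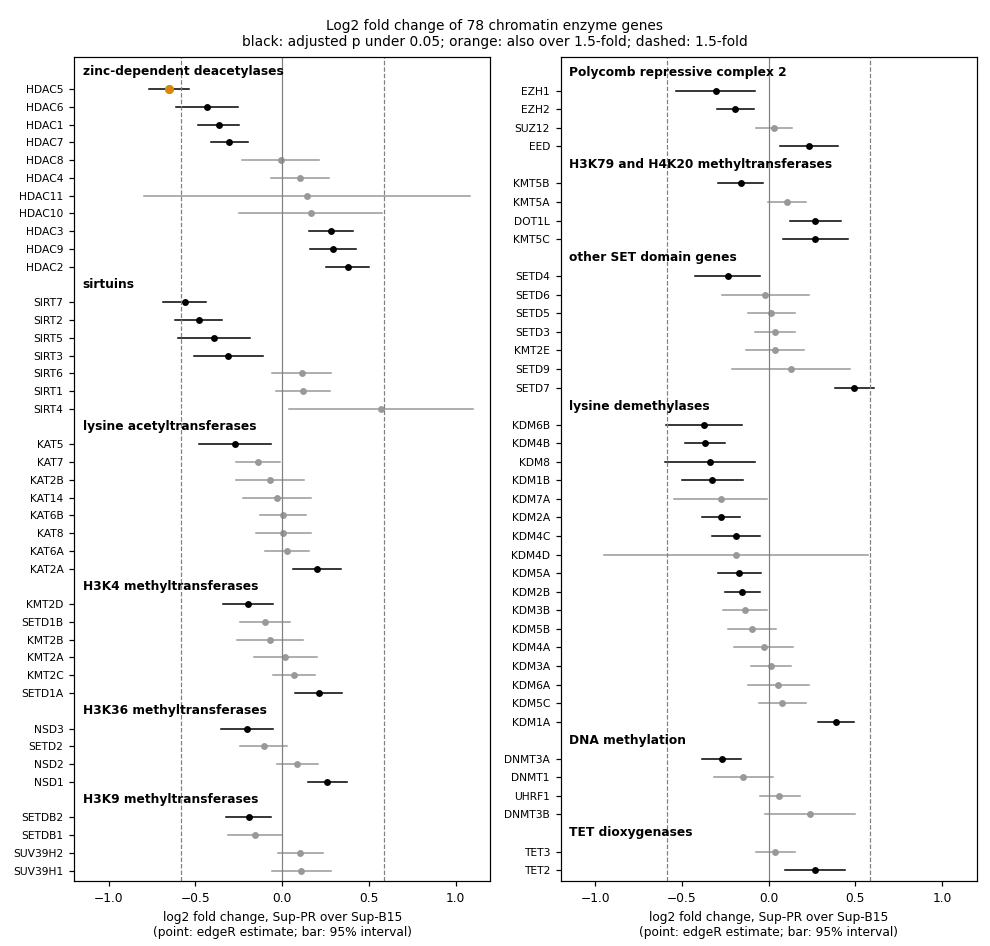
Log2 fold change of Sup-PR over Sup-B15 (horizontal axis) with its 95% interval for the 78 genes tested, grouped by role, with dashed lines at 1.5-fold. HDAC5 (orange) lies beyond the mark on the lower side, and SIRT7, SIRT4 and SETD7 come closest to it among the others.

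Lysine demethylases remove methyl groups from the residues above. Of 17, 8 were lower and 1 was higher in Sup-PR by the adjusted p, 8 did not pass, and the median log2 fold change was -0.17. The shares over all genes tested were 27.4% lower and 28.0% higher. The member that was higher, KDM1A (LSD1), is the flavin-dependent H3K4 demethylase of the CoREST complex and partners HDAC1 and HDAC2 there. It stood at 227.8, 223.8 and 221.5 CPM in Sup-PR and at 170.3, 167.9 and 176.7 CPM in Sup-B15. The lines were clearly separate (log2 fold change 0.39, SE 0.05, interval 0.28 to 0.49, adjusted p = 1.26e-05). The 20 genes nearest to it had a median of -0.26, the other direction, with 1 called higher and 4 called lower. Its paralogue KDM1B (LSD2) was lower, at 25.95 ± 1.06 CPM in Sup-PR and 32.64 ± 3.02 CPM in Sup-B15 (SD over 3 libraries of each line; log2 fold change -0.33, adjusted p = 0.00398).

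The Jumonji-type demethylases, which use iron and 2-oxoglutarate, held the other differences. KDM4B, which acts on H3K9 and H3K36, stood at 66.4, 70.15 and 67.7 CPM in Sup-PR and at 86.47, 87.49 and 89.44 CPM in Sup-B15, with no overlap (log2 fold change -0.37, SE 0.05, adjusted p = 5.29e-05). KDM6B (JMJD3), an inducible H3K27 demethylase, stood at 36.42, 31.12 and 26.06 CPM in Sup-PR and at 40.43, 42.86 and 37.62 CPM in Sup-B15 (log2 fold change -0.37, adjusted p = 0.00664). Its spread among Sup-PR libraries was wide, and the highest Sup-PR library came close to the lowest Sup-B15 library. KDM2A, an H3K36 demethylase that binds unmethylated CpG, averaged 184.8 ± 7.17 CPM in Sup-PR and 223.5 ± 8.16 CPM in Sup-B15 (SD over 3 libraries of each line; log2 fold change -0.27, adjusted p = 0.000476). KDM2B, its relative in a variant Polycomb complex, was lower by less (log2 fold change -0.15, adjusted p = 0.0143, and 0.0581 without Sup-B15 replicate 2).

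The H3K4 demethylase KDM5A was lower with a log2 fold change of -0.17 (adjusted p = 0.0214), which did not hold without Sup-PR replicate 2 or 3 or without Sup-B15 replicate 1 or 2 (adjusted p 0.0511 to 0.113). KDM4C and KDM8 were lower at log2 fold changes of -0.19 and -0.34. KDM4C did not pass without Sup-PR replicate 2 or Sup-B15 replicate 1 or 2 (adjusted p 0.0626 to 0.0829), nor KDM8 without Sup-PR replicate 2 or 3 or Sup-B15 replicate 2 or 3 (adjusted p 0.0605 to 0.0957). KDM3B, the H3K9 demethylase with the second highest transcript level per gene length of this group, did not pass (log2 fold change -0.14, adjusted p = 0.0654) and did pass without Sup-B15 replicate 3 (adjusted p = 0.00132). KDM6A (UTX), the constitutive H3K27 demethylase, was level (log2 fold change 0.06, interval -0.12 to 0.23), as were KDM3A, KDM4A and KDM5C (0.01, -0.03 and 0.08). KDM4D was scarce, at 14 to 32 counts per library in Sup-PR and 20 to 33 in Sup-B15, and its interval ran from -0.95 to 0.58. The summed FPKM of the 17 demethylases overlapped between the lines (162.8 to 168.5 in Sup-PR, 161.8 to 171.6 in Sup-B15), with KDM1A, the most abundant of them, being the one that was higher.

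UHRF1 recognises hemimethylated DNA and H3K9 methylation and recruits DNMT1 to newly replicated DNA; it is a reader and ubiquitin ligase and not itself a methyltransferase. It had by far the highest level per gene length, with 360.2 FPKM over all libraries, 6.003 times that of HDAC1, the next member, and it was above HDAC1 in 6 of 6 libraries. It stood at 1930, 1881 and 1909 CPM in Sup-PR and at 1862, 1825 and 1791 CPM in Sup-B15. Although the lines did not overlap, the difference was a log2 fold change of 0.06 (interval -0.05 to 0.18, adjusted p = 0.342), and -0.01 with library totals only. DNMT1, the maintenance methyltransferase, stood at 495.8, 426.6 and 402.5 CPM in Sup-PR and at 518.7, 508.3 and 440.1 CPM in Sup-B15, with overlap and wide spread in both lines (log2 fold change -0.15, adjusted p = 0.13). The adjusted p of DNMT1 was 0.00798 without Sup-PR replicate 1 and 0.0192 without Sup-B15 replicate 3.

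The de novo methyltransferase DNMT3A was lower, at 93.93, 92.92 and 87.63 CPM in Sup-PR and 113.6, 108.1 and 109.6 CPM in Sup-B15. The lines did not overlap (log2 fold change -0.27, SE 0.05, adjusted p = 0.000634). DNMT3B, the other de novo enzyme, stood at 17.68, 14.95 and 12.49 CPM in Sup-PR and at 11.97, 12.76 and 13.36 CPM in Sup-B15 (log2 fold change 0.24, adjusted p = 0.107). Without Sup-PR replicate 3, the lowest Sup-PR library, the log2 fold change was 0.35 (adjusted p = 0.0218), and without Sup-PR replicate 1, the highest, it was 0.11 (adjusted p = 0.423). DNMT3L, a catalytically inactive cofactor of germ cells, had 5, 2 and 3 counts in Sup-PR and 2, 1 and 2 in Sup-B15 and was not tested. Of the TET dioxygenases, TET1 had 2, 11 and 0 counts in Sup-PR and 3, 7 and 5 in Sup-B15 and was also not tested. The count of 0, in Sup-PR replicate 3, allows up to 3 counts (0.134 CPM), counting error only.

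TET2 was higher in Sup-PR, at 36.42, 30.08 and 32.46 CPM, against 27.49, 28.32 and 26.2 CPM in Sup-B15. Its libraries did not overlap (log2 fold change 0.27, adjusted p = 0.0126), but the adjusted p was 0.0569 without Sup-PR replicate 1. TET3 was level (log2 fold change 0.04, interval -0.08 to 0.15). Per gene length TET3 was the most abundant of the 3, with 7.43 FPKM in Sup-PR and 7.19 FPKM in Sup-B15, against 1.99 and 1.64 FPKM for TET2.

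The order of levels per gene length was alike at its ends in both lines. After UHRF1 came HDAC1 (60.0 FPKM over all libraries) and DNMT1 (47.14 FPKM), each above the next gene in 6 of 6 libraries. KDM1A (36.15 FPKM) and SUZ12 (35.31 FPKM) came next and changed order between the lines. KDM1A was above SUZ12 in every Sup-PR library (means 41.08 and 35.82 FPKM). It was below SUZ12 in every Sup-B15 library (means 31.23 and 34.8 FPKM). EZH2 followed with 31.66 FPKM over all libraries, and in Sup-B15 its mean of 33.67 FPKM was above that of KDM1A. At the low end stood HDAC8 (0.471 FPKM, with a listed gene length of 22986 bases), KDM4D (0.405 FPKM), HDAC11 (0.125 FPKM), DNMT3L (0.0648 FPKM) and TET1 (0.0226 FPKM). FPKM depend on the gene length that the authors listed.

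**Figure D4:**
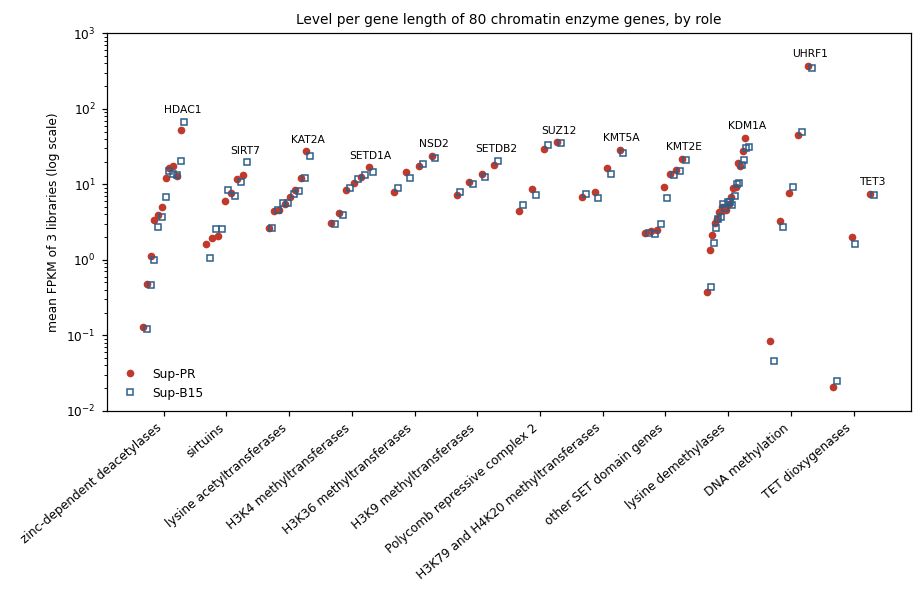
Mean FPKM of 3 libraries (vertical axis, log scale) of the 80 genes in Sup-PR (filled) and Sup-B15 (open), grouped by role with the most abundant gene of each group named. UHRF1 stands at 369.1 FPKM in Sup-PR and 351.2 FPKM in Sup-B15, above every other gene, and the points of the lines nearly coincide for most genes.

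Ratios between paralogues do not depend on library scaling, and 11 fixed pairs gave a value. In 5 of them the libraries of the lines did not overlap, which is a description without a test. No such share was taken for other pairs of genes. For the levels of single genes, 61.1% of all genes tested did not overlap. The ratio of HDAC1 to HDAC2, as log2 of FPKM, was 1.66, 1.60 and 1.56 in Sup-PR and 2.34, 2.35 and 2.36 in Sup-B15. HDAC1 thus had 3.04 times the FPKM of HDAC2 in Sup-PR and 5.09 times in Sup-B15. The size of this ratio depends on the listed lengths, 3963 bases for HDAC1 and 15461 for HDAC2. In CPM, not scaled to length, HDAC1 averaged 209.3 and HDAC2 268.5 in Sup-PR, against 269.9 and 206.8 in Sup-B15. The log2 ratio of KDM1A to KDM1B was 3.12, 3.14 and 3.20 in Sup-PR and 2.35, 2.57 and 2.40 in Sup-B15, a difference of 0.71. For DNMT3A over DNMT3B it was 1.03, 1.26 and 1.43 in Sup-PR and 1.87, 1.71 and 1.66 in Sup-B15, a difference of -0.50. KDM6A over KDM6B changed sides of 0, with a mean of 0.25 in Sup-PR and -0.19 in Sup-B15, and KDM2A over KDM2B differed by -0.12. The ratios of EZH2 to EZH1, SUV39H1 to SUV39H2, SETDB1 to SETDB2, KAT2A to KAT2B, KAT6A to KAT6B and KDM5A to KDM5B overlapped between the lines.

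**Figure D5:**
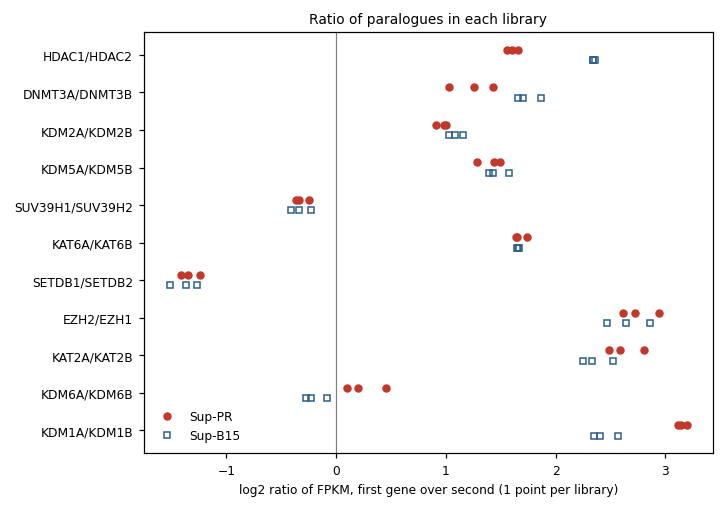
Log2 ratio of FPKM of the first gene over the second (horizontal axis) for 11 paralogue pairs, 1 point per library, Sup-PR filled and Sup-B15 open. The points separate widely for HDAC1/HDAC2 (1.56 to 1.66 in Sup-PR, 2.34 to 2.36 in Sup-B15) and KDM1A/KDM1B and mix for 6 pairs.

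The libraries of a line did not carry these genes evenly. Among the Sup-PR libraries, replicate 1 had the highest value for 45 of the 78 genes (37.6% of all genes tested), and replicate 3 the lowest for 34 (34.6% of all genes). Among the Sup-B15 libraries, replicate 1 was highest for 41 (30.9% of all genes), and replicate 3 lowest for 44 (34.8%). The median SD of log2 CPM over the 78 genes was 0.08 in both lines, against a median size of the log2 fold change of 0.17. For 16 of the 37 members that passed the adjusted p, leaving out 1 library ended the pass: EED, EZH1, KAT2A, KAT5, KDM2B, KDM4C, KDM5A, KDM8, KMT2D, KMT5B, KMT5C, NSD3, SETD1A, SETD4, SETDB2 and TET2. Of the 41 that did not pass, 10 passed without 1 library: DNMT1, DNMT3B, KAT7, KDM3B, KDM5B, KDM7A, SETD1B, SETD2, SETDB1 and SIRT1. Proliferation markers differed in both directions. Of 18, MKI67, TOP2A and BUB1 were called lower and 0 were called higher, and by the adjusted p 5 were lower and 6 higher (PCNA, MCM2, MCM3, MCM4, MCM6 and MCM7, log2 fold changes 0.23 to 0.29). The 18 markers summed to 6229 to 6313 CPM in Sup-PR and 6631 to 6709 CPM in Sup-B15. The part of these markers in the values of UHRF1, EZH2 or DNMT1, which follow the cell cycle, was not tested.

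Genes that work with these enzymes or supply them were listed separately. In 10 such lists 165 genes were tested, and 8 were called higher and 4 lower in Sup-PR (7.27%, against 23.0% of all genes tested), with a median log2 fold change of 0.01. By the adjusted p, 49 of the 165 were higher and 38 lower, beside 28.0% higher and 27.4% lower over all genes tested. The counts of each list below stand beside the same shares, and no list was tested as a set. Of the 16 other histone methyltransferases tested, the arginine methyltransferases CARM1 and PRMT3 were called higher. CARM1, a co-activator that methylates H3R17, stood at 124.4, 121.6 and 118.9 CPM in Sup-PR and at 72.38, 71.61 and 73.39 CPM in Sup-B15 (log2 fold change 0.75, SE 0.05, adjusted p = 4.59e-08). PRMT3 acts mainly on a ribosomal protein and differed by 0.61 (adjusted p = 2.87e-05).

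Of 8 other demethylases, 2 were called lower. HR (hairless), a Jumonji protein and co-repressor, was at 0.0502 to 0.358 CPM in Sup-PR and 1.63 to 2.58 CPM in Sup-B15 (log2 fold change -3.11, adjusted p = 3.3e-05). RIOX1, a ribosomal oxygenase, differed by -0.79 (adjusted p = 3.37e-05). Of 28 partners of deacetylases, MTA3, a NuRD subunit, was called higher (log2 fold change 0.78, adjusted p = 1.21e-06), and 11 were higher and 3 lower by the adjusted p. Of 35 partners of acetyltransferases tested, MBIP of the ATAC complex was called higher (0.97, adjusted p = 1.54e-06). Of 12 other acetyltransferases, among them CREBBP and EP300, 2 were higher and 4 lower by the adjusted p, and of 14 partners of H3K4 methyltransferases 6 were higher and 3 lower, each by less than 1.5-fold.

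Among 23 Polycomb partners, EPOP, which tunes Polycomb repressive complex 2, was called higher (log2 fold change 0.61, adjusted p = 4.43e-06). CBX7, a reader of H3K27 methylation, was called lower, at 1.3 to 1.74 CPM in Sup-PR and 3.42 to 3.99 CPM in Sup-B15 (-1.25, adjusted p = 0.000167). MLLT3 (AF9), 1 of 6 DOT1L partners, was called higher at a low level (5.45 CPM in Sup-PR, 3.4 CPM in Sup-B15, 0.68, adjusted p = 0.00224). ZBTB38, 1 of 12 genes that read or repair methylated DNA, was called lower (-1.01, adjusted p = 0.00882).

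Genes that supply cofactors were called higher in 2 of 11 cases, against 7.53% of all genes tested. By the adjusted p 5 were higher and 2 lower. AHCY clears S-adenosylhomocysteine, the product that inhibits methyltransferases, and NAMPT is the rate-limiting enzyme of NAD salvage, on which sirtuins depend. AHCY stood at 206.9, 220.5 and 224.4 CPM in Sup-PR and at 116.1, 122.8 and 139.8 CPM in Sup-B15 (log2 fold change 0.78, SE 0.07, adjusted p = 3.75e-07). NAMPT stood at 65.75, 70.8 and 77.24 CPM in Sup-PR and at 39.63, 38.54 and 40.93 CPM in Sup-B15 (log2 fold change 0.85, SE 0.07, adjusted p = 2.55e-07). NMNAT1, the nuclear enzyme of NAD synthesis, was lower (log2 fold change -0.41, adjusted p = 0.00613), as was IDH2, which makes 2-oxoglutarate in mitochondria (-0.18, adjusted p = 0.0154). AHCY and NAMPT were separate between the lines by a wide margin, and both estimates were larger than that of any of the 78 enzymes.

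Gene length and overlap with other genes were not used to choose the members. Split at their median gene length of 7285 bases, the shorter chromatin enzymes had a median log2 fold change of 0.03 and the longer ones of -0.10, and all genes tested split at the same length had medians of 0.00 and -0.06. Of the 80 genes, 52 overlap another gene of the table, 40 of them a gene on the opposite strand, and for 20 an overlapping gene holds at least 10% of their counts. No source used here states that counting used strand, and without it reads from overlapping genes cannot be told apart. HDAC10 is the most affected deacetylase, since MAPK12 shares 5956 of its bases on the same strand with 1001% of its counts.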

How the data were processed

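HISAT2 was used upstream to align the paired-end reads to GRCh38.p12. CASAVA and DESeq2 are named, without versions, in the submitters' processing notes. For the counting program, annotation and strand setting, the entry is: not given in the sources used here. The authors deposited raw counts per gene, FPKM (counts scaled to listed gene length and library size) and a signal column of counts divided by 1 size factor per library. A log2 fold change and a p-value per gene from the authors' own comparison stand in the deposited table and were not used. Columns were matched to samples by line name and replicate number, with 0 columns of per-sample values left unmapped. The genes without a gene name (128) were kept under their identifiers.

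Genes were filtered with filterByExpr and normalized by TMM, which gave the CPM quoted, and tested on the whole table with edgeR's quasi-likelihood test (glmQLFit with robust estimation, glmQLFTest). Benjamini-Hochberg adjustment ran over all genes tested. Calls needed an adjusted p below 0.05 together with a change beyond 1.5-fold. Log2 fold changes are Sup-PR over Sup-B15, and their 95% intervals use the SE from the F statistic. The common biological coefficient of variation was 0.065. The procedure was tested on simulated counts with 200 genes changed. FPKM were used for levels between genes, and for an alternative with limma on log2 values with a pseudocount of 1 or 0.1. Alternatives also covered DESeq2, limma-voom, other scalings and filters, each library left out, and the replicate number as a block.

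The members, roles and gene lists were chosen with earlier results of these data known. Named were every called member, the 2 members of each role with the highest FPKM, members not tested, both genes of each fixed pair, and up to 2 called genes per direction and related list. A further 9 among the 20 members with the smallest p (HDAC3, HDAC6, HDAC7, HDAC9, KDM4B, NSD1, SETD7, SIRT2 and SIRT5), and members given with a role's counts, were named after their values were seen. Promoters came from RefSeq (GRCh38.p14) and were used for sequence only. Fits ran in R 4.3.3 (edgeR 4.0.16, DESeq2 1.42.0, limma 3.58.1), and tables and plots in Python 3.11.15 (numpy 2.4.6, pandas 2.3.3, matplotlib 3.10.9).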

Additional observations from a re-analysis of the deposited data

How the results depend on the processing

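HDAC5 was past both thresholds in 19 of 20 alternative settings, with log2 fold changes of -0.72 to -0.61. The setting with the adjusted p only reuses the reported fit without the fold threshold and could not differ for HDAC5. The number of members called lower was 2, the second being SIRT7, with library totals only (SIRT7 log2 fold change -0.63), upper-quartile scaling (-0.62), at least 10 counts in every library (-0.59) and protein-coding genes only (-0.60). It was 1 to 2 when each library was left out in turn, with 2 without Sup-PR replicate 2 and without Sup-B15 replicate 2, and 0 with glmTreat against 1.5-fold, a test of the size of the change. With glmTreat, the count of all genes called higher was 484 and of all genes called lower 1318, and 5 related genes were called higher and 2 related genes called lower (related genes are counted here together with the proliferation markers, 8 higher and 7 lower in the reported fit). By the adjusted p only, these counts were 4168 and 4069 for all genes, 12 and 25 for members, and 55 and 43 for related genes. With log2(FPKM + 1) they were 631 and 943 for all genes called higher and lower and 4 and 3 for related genes, without a filter 661 and 1093 and again 4 and 3, and with log2(FPKM + 0.1) 1290 genes in all and 3 related genes were called lower. Members at adjusted p under 0.05 numbered 12 higher and 19 lower with DESeq2, and 6 higher and 30 lower with library totals only. They numbered 8 higher and 30 lower with upper-quartile scaling, and 14 lower with log2(FPKM + 1) without a filter. Of 882 log2 fold changes of 49 named members under 18 settings, 787 kept their direction and side of the threshold, 34 kept the direction and no longer passed, and 25 kept it and newly passed. The other 36, of 10 members, changed sign between values of at most 0.074 in size, none with an adjusted p under 0.235. With library totals only these were KAT6A (-0.044), KAT6B (-0.064), KAT8 (-0.062), KDM6A (-0.015), KMT2E (-0.032), SETD3 (-0.034), SUZ12 (-0.038), TET3 (-0.031) and UHRF1 (-0.007), and with upper-quartile scaling KAT6A (-0.033), KAT6B (-0.053), KAT8 (-0.05), KDM6A (-0.004), KMT2E (-0.02), SETD3 (-0.022), SUZ12 (-0.026) and TET3 (-0.019). With at least 10 counts in every library they were KAT6A (-0.001), KAT6B (-0.021) and KAT8 (-0.019), and with protein-coding genes only KAT6A (-0.012), KAT6B (-0.032), KAT8 (-0.03), SETD3 (-0.002) and SUZ12 (-0.006). With each library left out in turn, KAT6A ran from -0.049 to 0.057, KAT6B from -0.064 to 0.032, KAT8 from -0.049 to 0.071, KDM6A from -0.038 to 0.102, KMT2B from -0.175 to 0.011 and KMT2E from -0.074 to 0.096. Members outside these 49 also changed sign, the scarce ones by more. HDAC11 went from 0.142 to -0.284 without Sup-B15 replicate 2. KDM4D went from -0.188 to 0.114 without Sup-PR replicate 2, and HDAC10 from 0.164 to -0.06 without Sup-PR replicate 1. Beyond the settings that change scaling, filter or samples, the causes were not tested. At this depth HDAC11, KDM4D and SIRT4 had intervals that included changes over 1.5-fold.

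The replicate numbers were not taken to pair the libraries. Deviations from the line means of libraries with the same number correlated across genes at 0.13, -0.06 and 0.20, and not every library correlated best with its own number. With the number as a replicate block, 0 members were called higher and 1 lower, and 14 were higher and 31 lower by the adjusted p.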
